A study of Homo sapiens with 60 samples.

Results

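Zizyphi Semen, the dried seed of a jujube species that East Asian medicine uses as a sedative, was given to cells as a hot-water extract at 500 µg/mL and compared with the DMSO vehicle. The 6 libraries, 3 of each group, were chosen by their sample titles from 60 libraries in 20 groups of 3. The series profiled HepG2, a long-established human liver cancer line with many working hepatocyte traits, by RNA-seq after 24 h with 1 of 6 herbal water extracts at a high, a medium or a low dose, with wortmannin or with the vehicle. The labels give the vehicle as 0.1% DMSO and the series' design text as 2% DMSO, and the solvent of the extract is not given in the sources used here. Also used here were the same extract at 100 µg/mL (medium) and 20 µg/mL (low), and the water extract of Longan Arillus, another fruit-derived herb, at 500 µg/mL, each with 3 libraries and 24 h of exposure. The titles place all 60 libraries in 1 batch, but their sample codes fall into sets. The vehicle libraries form a set of their own and the Zizyphi and Longan libraries share another, no label explains the sets, and extract and set cannot be told apart in any comparison with the vehicle. The labels do not say whether replicates were separate cultures, so p-values rest on the spread between these samples, and that may be technical only.

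Several hepatocyte systems are useful for reading these data. The aryl hydrocarbon receptor is a transcription factor that binds flat aromatic compounds, enters the nucleus and switches on CYP1A1, a cytochrome P450 that oxidises them. Hepatocytes also secrete hepcidin, the hormone that blocks iron export from other cells, buffer zinc and copper with metallothioneins, and make cholesterol and fatty acids under the SREBP transcription factors. The hypoxia-inducible factors switch on glucose uptake and glycolysis genes, and low insulin signalling lets FOXO factors switch on IGFBP1 and the genes of glucose production.

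Total counts were 21.6 to 27.1 M in the vehicle and 22.6 to 30.2 M in the high-dose libraries. HepG2's hepatocyte markers were present in all of them: ALB, encoding albumin, was at 6656 ± 319 CPM in vehicle libraries and 7897 ± 928 CPM in high-dose libraries, and AFP, encoding alpha-fetoprotein, at 2845 ± 179 and 3055 ± 367 CPM (CPM, counts scaled to library size with edgeR's TMM factors, mean ± SD, n = 3). Of 10 immune cell markers, PTPRC, CD3E, MS4A1 and MARCO were at 0 and LYZ, encoding lysozyme, made up nearly all of a summed level of 981 to 1022 CPM in vehicle libraries and 1165 to 1270 CPM in high-dose libraries. The 9 endothelial markers summed to 4.90 to 5.18 and 3.54 to 5.16 CPM with KDR, TEK, CLEC4G, ERG and EMCN at 0. The 10 fibroblast markers summed to 64.9 to 72.0 and 72.1 to 73.4 CPM with COL1A2 and DCN at 0, and the 8 cholangiocyte markers to 1206 to 1225 and 1234 to 1268 CPM with CFTR at 0. Vehicle replicate 1 stood apart from the other vehicle libraries. Its levels ran against the GC content of genes with a slope of -0.13 log2 units per 10 percentage points, against 0.01 and 0.02 in the other vehicle libraries and -0.03 to 0.06 at the high dose. Mitochondrially encoded mRNAs took 16.1% of its counts, where the group means were 14.1% ± 1.77 in the vehicle and 13.0% ± 1.02 at the high dose (SD, n = 3).

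Across 16517 tested genes the high dose gave many small differences and few large ones. With edgeR's quasi-likelihood test and Benjamini-Hochberg adjustment at 0.05, 422 genes were higher (2.55% of the tested genes) and 308 were lower (1.86%), 4.42% in all. At least a 2-fold change was reached by 18 of the higher (0.109%) and 3 of the lower genes (0.0182%). The high-dose libraries lay above all vehicle libraries for 11.7% of tested genes and below them for 11.5%, whether called or not. Without vehicle replicate 1 the count fell to 195, of which 186 were among the 730. Called genes also differed in base composition: the median GC content was 55.8% for those that rose, 45.9% for those that fell and 50.2% for all tested genes, and without vehicle replicate 1 it was 50.3% and 51.6%. A core of 145 genes, 88 higher and 57 lower, was called in the reported fit and with each of the 6 libraries left out in turn. These are the calls that lead the account below.

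**Figure D1:**
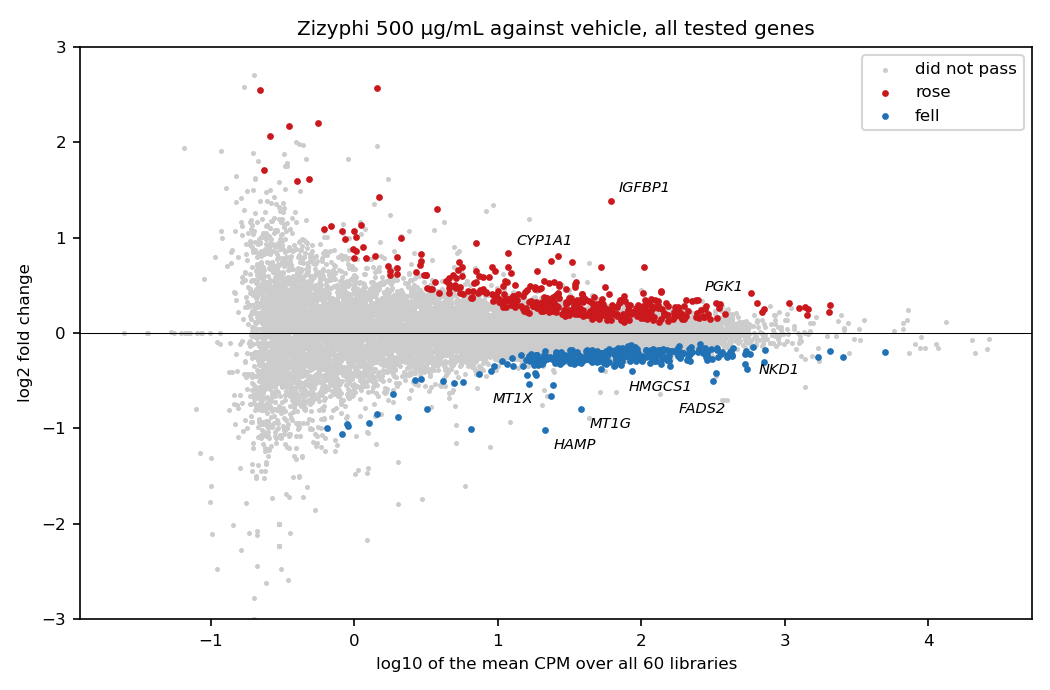
Each point is a tested gene, with log10 of its mean CPM over all 60 libraries on the x axis and its log2 fold change at 500 µg/mL against the vehicle on the y axis. Red points rose and blue points fell (edgeR adjusted p under 0.05), and 51 genes beyond 3 on either side are not drawn. Most called genes sit close to 0, with IGFBP1 and HAMP well outside the band.

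**Figure D2:**
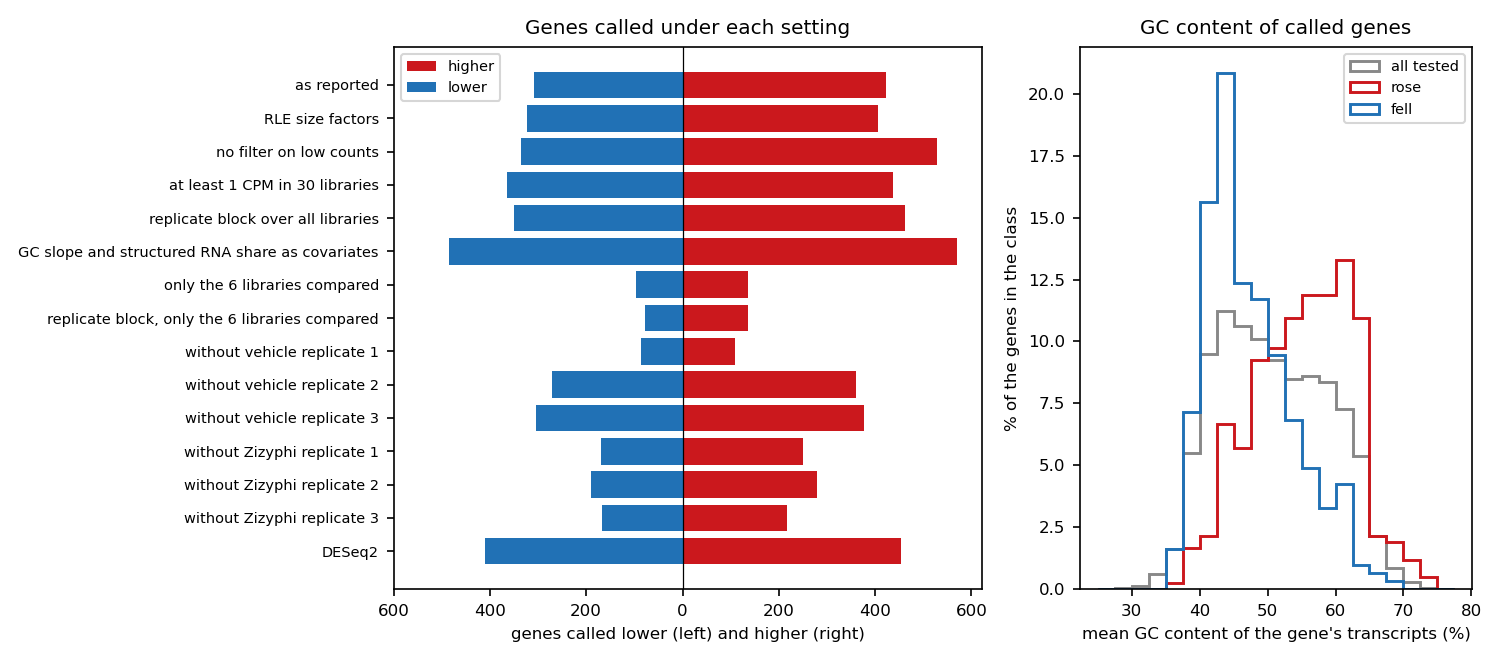
The left plot gives the number of genes called higher (right, red) and lower (left, blue) at 500 µg/mL against the vehicle under each setting, from 195 genes without vehicle replicate 1 to 1054 with library covariates. The right plot gives the GC content (%) of all tested genes (grey), of the genes that rose (red) and of those that fell (blue), as a percentage of each class.

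CYP1A1 (ENSG00000140465, chromosome 15, 74719542 to 74725610) rose at the high dose and had the smallest p of all tested genes. Its level was 7.15, 7.20 and 7.24 CPM in the 3 vehicle libraries and 13.4, 13.6 and 11.5 CPM in the 3 high-dose libraries. The groups did not overlap, and the low-dose libraries (6.46, 7.40 and 6.94 CPM) and medium-dose libraries (6.18, 6.52 and 7.68 CPM) lay around the vehicle. The log2 fold change was 0.84 ± 0.10 (± SE) against the vehicle and 0.90 ± 0.09 against the low dose, with edgeR adjusted p = 3.38e-07 and 2.27e-08. Both calls held under all alternatives run, 14 for the vehicle comparison and 15 for the dose comparison. In bulk RNA, more cells expressing a gene and more RNA per cell cannot be told apart. The promoter is shown because the receptor's binding core, the letters GCGTG of the xenobiotic response element searched on both strands, is in it. The run below gives the 250 bases before the RefSeq start (GRCh38.p14, chr15:74725529-74725778, minus strand) with the core in capitals.
CYP1A1: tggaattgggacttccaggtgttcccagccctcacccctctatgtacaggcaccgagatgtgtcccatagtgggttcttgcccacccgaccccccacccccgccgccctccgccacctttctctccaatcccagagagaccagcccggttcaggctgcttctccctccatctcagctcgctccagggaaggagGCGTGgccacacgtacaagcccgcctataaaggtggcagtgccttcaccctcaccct
The only match lies 57 to 53 bases before the start, and 32.2% of 34788 promoter windows of the same length hold the core at least at 1 place, so a match is a description and no evidence of binding.

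The other receptor targets did not follow with CYP1A1 past the threshold. Of 5 tested members of the list of aryl hydrocarbon receptor targets, CYP1A1 was the only one called, against 2.55% of all genes called higher. All 5 had a positive log2 fold change, with a median of 0.18, and 3 were higher at an unadjusted edgeR p under 0.05. ALDH3A1, an aldehyde dehydrogenase, was at 0.82 ± 0.29 from a low level (edgeR adjusted p = 0.0959), NQO1, a quinone reductase, at 0.11 ± 0.04, TIPARP, which feeds back on the receptor, at 0.06 ± 0.08, and AHRR, the receptor's repressor, at 0.18 ± 0.25. Among 10 targets of the drug-sensing receptors PXR and CAR, CYP3A5 was called, with 3.83, 4.66 and 4.36 CPM in vehicle libraries and 6.07, 6.23 and 5.83 CPM in high-dose libraries. The groups did not overlap (log2 fold change 0.50 ± 0.11, edgeR adjusted p = 0.00400), but the call ended under 3 of 14 alternatives, the fit without vehicle replicate 1 among them. CYP3A4, the major drug-oxidising P450, was at -0.31 ± 0.66 with means below 0.2 CPM. Of 24 NRF2 targets, which answer oxidative and electrophilic stress, 4 rose. ABCC2, a canalicular efflux pump, rose from 266 ± 14.2 to 332 ± 9.67 CPM (log2 fold change 0.32 ± 0.04, edgeR adjusted p = 8.15e-07) and AKR1C1, a steroid-reducing aldo-keto reductase, by 0.31 ± 0.06, both with each library left out, while AKR1B10 (0.20 ± 0.06) and AKR1C3 (0.29 ± 0.08) did not pass without vehicle replicate 1. HMOX1, GCLM and TXNRD1, core members of this response, were at 0.03 ± 0.07, 0.02 ± 0.08 and -0.08 ± 0.06, and the list's median was 0.04 against 0.0015 for all tested genes. AKR1C genes are close copies, so reads may be shared between them.

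HAMP (ENSG00000105697, chromosome 19, 35280716 to 35285143), which encodes hepcidin, was lower at the high dose than in any other group compared here. The vehicle libraries were at 21.7, 22.3 and 24.2 CPM and the high-dose libraries at 11.1, 12.3 and 10.2 CPM. The groups lay far apart, while the low dose (21.2, 25.3 and 20.3 CPM) and the medium dose (20.2, 24.1 and 20.7 CPM) overlapped the vehicle. HAMP fell by 1.02 ± 0.16 on the log2 scale against the vehicle (edgeR adjusted p = 6.75e-05) and by 0.98 ± 0.16 against the low dose (edgeR adjusted p = 3.66e-04), and both calls held under all 14 and all 15 alternatives. The gene's promoter is shown because hepcidin is known to be driven by bone morphogenetic protein signals through an element with the core GGCGCC, which was searched on both strands. The 250 bases before the RefSeq start are given (GRCh38.p14, chr19:35282278-35282527, plus strand) with the core in capitals.
HAMP: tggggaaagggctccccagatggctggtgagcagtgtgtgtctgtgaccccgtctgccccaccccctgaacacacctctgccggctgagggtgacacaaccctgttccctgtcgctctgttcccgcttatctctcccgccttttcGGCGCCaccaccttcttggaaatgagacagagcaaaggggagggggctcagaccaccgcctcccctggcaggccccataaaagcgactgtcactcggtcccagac
The core occurred at 1 place, 105 to 100 bases before the start, and 16.4% of all promoter windows hold it. Of 13 iron handling genes tested, HAMP was the only one that fell, against 1.86% of all genes called lower. TF, encoding transferrin, rose by 0.22 ± 0.05, but not past the threshold without vehicle replicate 1. The list's median was 0.04. ID1 and SMAD7, known targets of the same bone morphogenetic protein signal, were at -0.14 ± 0.11 and -0.18 ± 0.10 with edgeR adjusted p = 0.527 and 0.347. TFRC, the transferrin receptor, was at 0.21 ± 0.07 (edgeR adjusted p = 0.0717), and FTH1, FTL and SLC40A1, encoding the ferritin chains and the iron exporter, at 0.17 ± 0.17, 0.04 ± 0.14 and 0.05 ± 0.05.

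Metallothioneins are small cysteine-rich proteins that bind zinc and copper, and 2 of their genes, MT1X and MT1G, fell. MT1X (ENSG00000187193, chromosome 16, 56682424 to 56684196) was at 34.4, 31.5 and 34.3 CPM in vehicle libraries and 19.8, 20.8 and 22.6 CPM in high-dose libraries, with no overlap. It fell by 0.67 ± 0.13 on the log2 scale (edgeR adjusted p = 0.00142), and this call held under all 14 alternatives. MT1G was at 52.9, 55.1 and 56.2 CPM in vehicle libraries and 28.8, 34.7 and 30.7 CPM in high-dose libraries, a log2 fold change of -0.80 ± 0.22 (edgeR adjusted p = 0.0224). Its groups did not overlap either, but the call ended without vehicle replicate 1 and without high-dose replicate 1 or 3. MT2A, another copy, was at 208, 185 and 196 and 112, 136 and 130.3 CPM, a log2 fold change of -0.64 ± 0.23 that did not pass (edgeR adjusted p = 0.0949). In all, 2 of 8 tested members of the metallothionein and zinc list fell, against 1.86% of all genes, 7 of 8 had a negative log2 fold change and the median was -0.63. With library covariates 3 of the 8 fell, with only the 6 libraries fitted 5, and 6 were lower at an unadjusted p under 0.05. The list also holds zinc transporters: SLC30A1, an exporter, was at -0.14 ± 0.07 and SLC39A10, an importer, at 0.21 ± 0.09, neither past the threshold, though SLC39A10 passed without vehicle replicate 1. Metallothionein genes are near-identical copies and reads may be shared between them, so their sum over 21 genes of the family was also taken. The sum was 422, 396 and 409 CPM in vehicle libraries and 231, 284 and 263 CPM in high-dose libraries, which does not overlap the vehicle. At the low dose it was 328, 463 and 308 CPM and at the medium dose 301, 448 and 268 CPM, where replicate 2 was the highest library each time and lay above the vehicle. Longan at 500 µg/mL was at 275, 333 and 389 CPM, also below every vehicle library and overlapping the Zizyphi high dose. The MT1X promoter is printed because zinc acts on these genes through the metal response element, whose core was searched as TGCGCNC or TGCACNC on both strands and stands in capitals (GRCh38.p14, chr16:56682220-56682469, plus strand, 250 bases before the RefSeq start).
MT1X: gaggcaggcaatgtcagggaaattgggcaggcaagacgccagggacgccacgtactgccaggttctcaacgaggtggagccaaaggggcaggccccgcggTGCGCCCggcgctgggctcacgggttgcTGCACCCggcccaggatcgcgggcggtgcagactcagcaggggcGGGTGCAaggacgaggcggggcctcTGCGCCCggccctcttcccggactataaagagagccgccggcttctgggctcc
It held 4 matches, the nearest 53 to 47 and the farthest 150 to 144 bases before the start. At least 1 match was in 24.8% of promoter windows and at least 2 were in 6.48%.

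**Figure D3:**
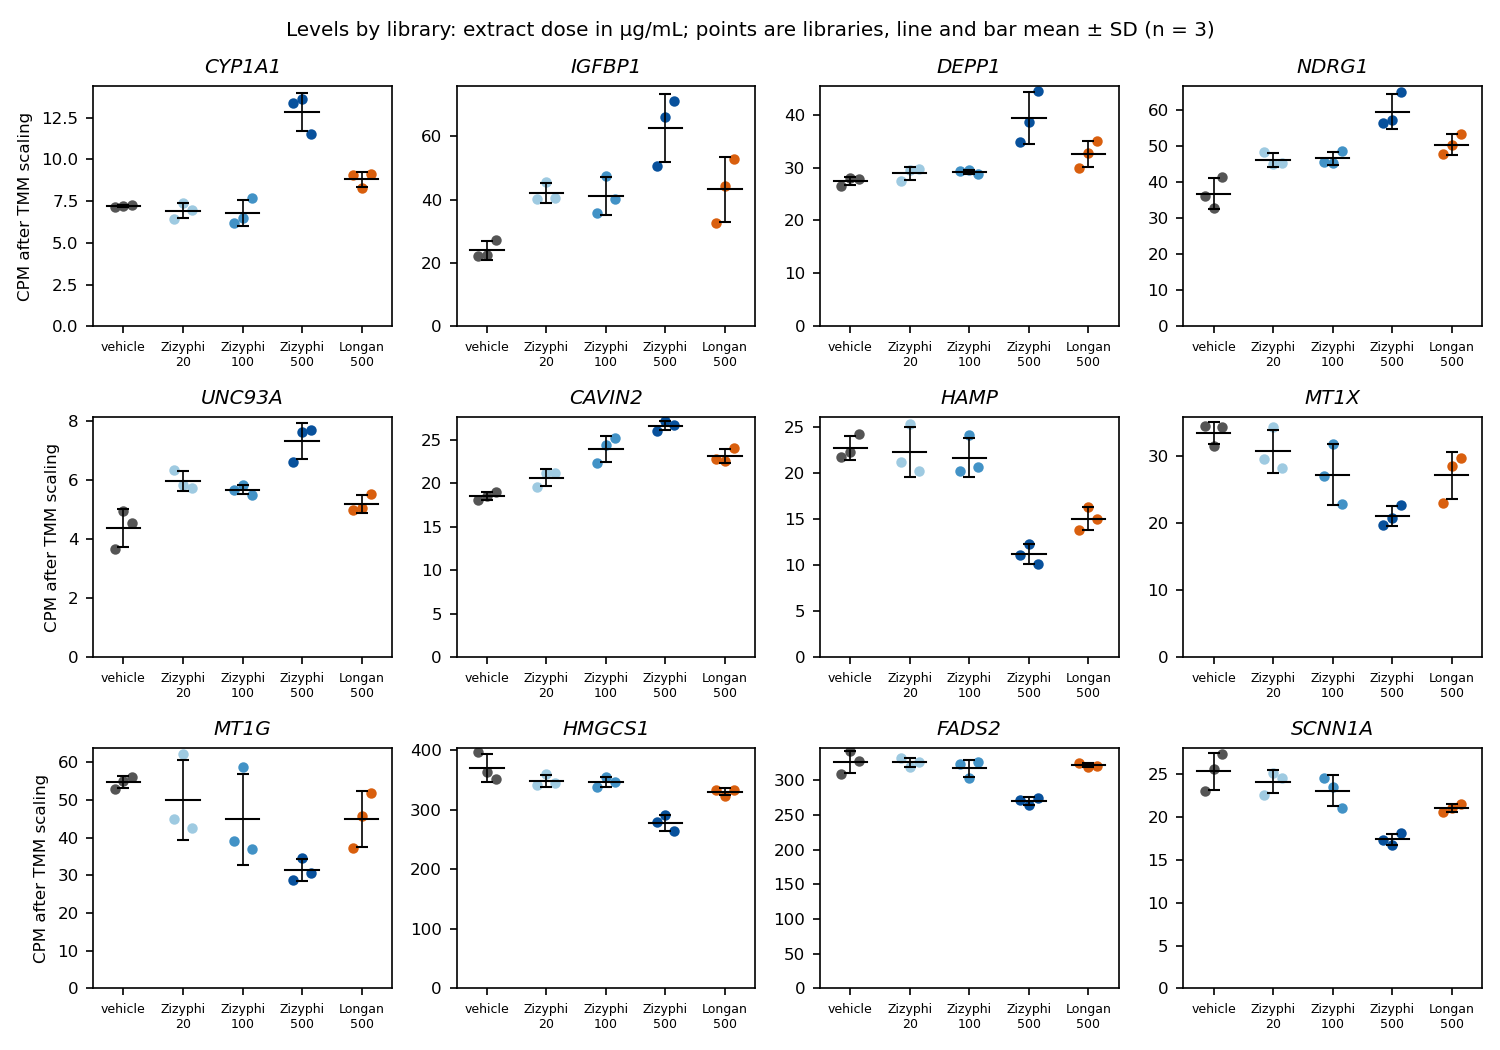
Each panel gives CPM after TMM scaling for 1 gene, with points for the 3 libraries of a group and a line and bar for mean ± SD, for the vehicle, Zizyphi at 20, 100 and 500 µg/mL and Longan at 500 µg/mL. CYP1A1 and HAMP left the vehicle level at 500 µg/mL, IGFBP1 was already above it at 20 µg/mL, and the y axes start at 0.

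Targets of the hypoxia-inducible factors were among the called genes. Of 18 tested, 10 rose, against 2.55% of all genes, with a median log2 fold change of 0.30, and 7 of these passed with each of the 6 libraries left out, among them NDRG1, KDM3A, PDK1 and, outside the naming rule, INSIG2, BNIP3 and P4HA1. NDRG1, a stress-induced gene, was at 36.2, 33.0 and 41.3 CPM in vehicle libraries and 56.4, 57.2 and 65.1 CPM in high-dose libraries, without overlap (log2 fold change 0.69 ± 0.10, edgeR adjusted p = 1.76e-05). KDM3A, a histone demethylase, rose by 0.36 ± 0.06 and PDK1, a kinase that keeps pyruvate out of the mitochondria, by 0.46 ± 0.08. Of the members that did not pass, VEGFA, an angiogenic factor, was at 0.10 ± 0.05 (edgeR adjusted p = 0.266) and CA9, a carbonic anhydrase, at 1.07 ± 0.43 from 0.919, 0.753 and 2.01 to 1.77, 2.09 and 3.86 CPM (edgeR adjusted p = 0.148), where the groups overlapped.

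Glycolysis and glucose uptake genes were called as well. Of 22 tested, 10 rose, against 2.55% of all genes, all 22 had a positive log2 fold change and the median was 0.24. PFKFB4, which sets the level of the glycolytic activator fructose 2,6-bisphosphate, was at 14.2, 13.8 and 16.8 CPM in vehicle libraries and 24.4, 22.1 and 29.6 CPM in high-dose libraries. The groups did not overlap (log2 fold change 0.76 ± 0.14, edgeR adjusted p = 3.90e-04), and the low dose was already at 24.3, 18.2 and 23.2 CPM. PFKFB4 lies over the end of UCN2, a gene at under 1 CPM. GPI, glucose-6-phosphate isomerase, rose from 307 ± 11.0 to 369.8 ± 15.3 CPM, a log2 fold change of 0.27 ± 0.04 (edgeR adjusted p = 9.73e-06). PGK1, PGAM1 and the glucose transporter SLC2A1 rose by 0.35 ± 0.06, 0.30 ± 0.05 and 0.25 ± 0.04. The calls of these 5 genes held with each library left out, and those of the other 5 (outside the naming rule ALDOA, ENO1, ENO2 and SLC2A3, and PFKFB3, at 0.69 ± 0.20) ended without vehicle replicate 1. LDHA, lactate dehydrogenase, was at 0.19 ± 0.06 (edgeR adjusted p = 0.0692). Without vehicle replicate 1 the counts were 7 for the hypoxia list and 5 for the glycolysis list, and with only the 6 libraries fitted they were 7 and 6. Against the low dose, 1 gene of each list was called higher at the high dose, against 0.212% of all genes.

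IGFBP1 (ENSG00000146678, chromosome 7, 45888357 to 45893668), which the liver secretes to bind insulin-like growth factors, had the largest log2 fold change among the called genes that reached 5 CPM in either group. The vehicle libraries were at 22.1, 22.4 and 27.3 CPM and the high-dose libraries at 50.5, 66.1 and 71.0 CPM. The lowest high-dose library was above the highest vehicle library by a wide margin (log2 fold change 1.39 ± 0.18, edgeR adjusted p = 2.17e-06). IGFBP1 was already higher at the low dose, at 40.1, 45.6 and 40.5 CPM (log2 fold change 0.81 ± 0.18, edgeR adjusted p = 0.0143). The medium dose was at 35.7, 47.5 and 40.3 CPM (0.78 ± 0.19, edgeR adjusted p = 0.0340). The difference between the high and the low dose, 0.57 ± 0.17, did not pass (edgeR adjusted p = 0.186). Of 18 genes of glucose production or repressed by insulin, 4 rose, against 2.55% of all genes, and 0 fell. By DESeq2 3 rose and 1 fell, and at an unadjusted edgeR p under 0.05 the counts were 6 and 2. DESeq2 gave no adjusted p for PCK1 and G6PC1, called by edgeR, so the rises of the methods were not all the same genes. The list's median log2 fold change was 0.02. PCK1, the rate-controlling enzyme of gluconeogenesis, was at 1.96, 2.31 and 2.01 CPM in vehicle libraries and 3.35, 3.94 and 3.27 CPM in high-dose libraries (log2 fold change 0.76 ± 0.16, edgeR adjusted p = 0.00262). G6PC1, the catalytic subunit of glucose-6-phosphatase, was at 1.16, 1.51 and 2.30 and 3.35, 2.92 and 2.47 CPM, a rise of 0.83 ± 0.23 whose call ended without vehicle replicate 1. The PCK1 and G6PC1 groups did not overlap, but both genes were low. DEPP1, a FOXO target that regulates autophagy, was at 26.6, 28.1 and 27.8 CPM in vehicle libraries and 34.9, 38.7 and 44.5 CPM in high-dose libraries, and differed from the low dose as well (0.44 ± 0.09, edgeR adjusted p = 0.0106). IRS2 and INSR, other genes of insulin signalling, were at -0.01 ± 0.59 and 0.03 ± 0.11, and the error of IRS2 was too wide to read its level as unchanged.

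Some sterol and fatty acid synthesis genes fell slightly. Of 25 cholesterol synthesis and uptake genes, 6 fell (median -0.14), and of 13 fatty acid synthesis genes 6 fell (median -0.18), against 1.86% of all genes. With library covariates 10 genes of the sterol list fell and 5 of the fatty acid list, and with only the 6 libraries fitted 3 and 4. HMGCS1 (ENSG00000112972, chromosome 5, 43289395 to 43313512), which makes the precursor of mevalonate, was at 397, 364 and 352 CPM in vehicle libraries and 279, 292 and 264 CPM in high-dose libraries. The low dose (342, 360.2 and 345 CPM) and the medium dose (338, 356 and 347 CPM) overlapped the vehicle, and the high-dose libraries were below all of them. HMGCS1 fell by 0.41 ± 0.05 on the log2 scale against the vehicle and by 0.33 ± 0.05 against the low dose (edgeR adjusted p = 1.52e-06 and 3.66e-04). SQLE, squalene epoxidase, was at 375, 369 and 372 CPM in vehicle libraries and 307, 315 and 316 CPM in high-dose libraries (-0.25 ± 0.04, edgeR adjusted p = 1.85e-05). CYP51A1 (-0.20 ± 0.05) and FDFT1 (-0.24 ± 0.06), later enzymes of the pathway, fell as well, but did not pass without vehicle replicate 1, where 2 of the 6 calls of the list held. The regulator SREBF2 was at -0.11 ± 0.06, not past the threshold. INSIG1, the sterol sensor's anchor, was at -0.43 ± 0.53 with a wide error (edgeR adjusted p = 0.749). Its means were low, 0.251 CPM in vehicle and 0.178 CPM in high-dose libraries.

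Among fatty acid genes FADS2, the desaturase that starts the synthesis of long polyunsaturated fatty acids, was at 310, 342 and 328 CPM in vehicle libraries and 271, 265 and 275 CPM in high-dose libraries. All high-dose libraries were lower, by 0.27 ± 0.04 on the log2 scale (edgeR adjusted p = 4.15e-05), and the low dose stayed at 333, 319 and 327 CPM. ELOVL6, an elongase, fell by 0.29 ± 0.04 and ACSS2, which makes acetyl-CoA from acetate, by 0.18 ± 0.04. GPAM, the first enzyme of triglyceride synthesis, fell by 0.24 ± 0.05, and this call ended without vehicle replicate 1. SREBF1, the transcription factor of this pathway, was at 137, 146 and 139.7 CPM in vehicle libraries and 118, 107 and 119 CPM in high-dose libraries. It fell by 0.30 ± 0.06 (edgeR adjusted p = 0.00394) under all 14 alternatives. Other lipid genes rose: PLIN2, which coats lipid droplets, rose by 0.34 ± 0.05, ACADVL, a mitochondrial acyl-CoA dehydrogenase, by 0.35 ± 0.05 and ABCG5, a sterol export half-transporter, by 0.29 ± 0.05 (edgeR adjusted p = 6.98e-05, 4.47e-05 and 8.08e-04). In the list of 9 sterol efflux and LXR target genes ABCG5 rose and SREBF1 fell, with a median of -0.03, and ABCG8, the partner of ABCG5, and ABCA1, another exporter, were at -0.07 ± 0.08 and -0.03 ± 0.08. The ABCG5 call ended with only the 6 libraries fitted. Of 16 genes of fatty acid oxidation, many driven by PPARA, 3 rose, against 2.55% of all genes called higher. The calls of PLIN2 and ACADVL held with each library left out, and the remaining call of the list did not. CPT1A, which brings fatty acids into the mitochondria, was at 0.18 ± 0.10, not past the threshold.

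Mitotic genes made up another group of small decreases. Of 20 genes of the G2 and M phases 10 fell, against 1.86% of all genes, all 20 had a negative log2 fold change and the median was -0.19. PLK1, a kinase of mitotic entry, fell from 336 ± 1.71 to 283 ± 4.20 CPM (-0.25 ± 0.06, edgeR adjusted p = 0.00545), and it was the only call of the list that held with each library left out. KIF23 and KIF11, motor proteins of the spindle, and AURKA, a spindle kinase, were at -0.26 ± 0.06, -0.24 ± 0.06 and -0.20 ± 0.05. Without vehicle replicate 1 the list had 2 calls, PLK1 and AURKA, and with only the 6 libraries fitted it had 3. In the hypoxia, glycolysis, NRF2 and PPARA lists no member fell, and in the sterol, fatty acid and mitotic lists none rose, by edgeR, by DESeq2 and at an unadjusted p under 0.05.

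Other called groups were small. Of 14 beta-catenin targets 2 fell, against 1.86% of all genes. NKD1, a feedback inhibitor of Wnt signalling, was at 619, 624 and 638 CPM in vehicle libraries and 492, 463 and 489 CPM in high-dose libraries. It fell by 0.38 ± 0.05 on the log2 scale (edgeR adjusted p = 3.39e-07), without overlap and under all 14 alternatives, while AXIN2 and GLUL were at -0.04 ± 0.07 and -0.00 ± 0.03. NOTUM, a secreted Wnt inhibitor, fell by 0.23 ± 0.07 (edgeR adjusted p = 0.0360), a call that held without vehicle replicate 1 but ended under 6 of 14 alternatives. Among 22 secreted hepatocyte proteins 5 rose, against 2.55% of all genes called higher. They were led by the fibrinogen chain FGA (0.27 ± 0.05, edgeR adjusted p = 0.00103), which passed with each library left out. TF, AHSG, AMBP and HPX did not pass without vehicle replicate 1, and ALB was at 0.25 ± 0.09 (edgeR adjusted p = 0.0885). Of 22 lysosome genes 4 rose and of 17 autophagy genes 3 rose, against the same 2.55%. Of these, only NPC1, the cholesterol exporter of the lysosome (0.26 ± 0.05), and WIPI1, needed to form the autophagosome (0.31 ± 0.06), held with each library left out. The WIPI1 call ended with only the 6 libraries fitted, where the autophagy list had 0 calls. LYZ rose from 949 ± 21.6 to 1182 ± 58.9 CPM (0.32 ± 0.05, edgeR adjusted p = 9.21e-06). Of the 10 immune markers 4 were at 0 as given above, and the others had counts.

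Several stress and synthesis programmes gave no call. None of 18 endoplasmic reticulum chaperones, 18 heat shock chaperones, 24 ribosomal protein genes, 15 amino acid transporters, 17 immediate early genes and 13 mitochondrially encoded mRNAs passed the test by edgeR. At an unadjusted p under 0.05 the counts were 2, 2, 4, 2, 5 and 1, and by DESeq2 they were 0, 0, 1, 0, 0 and 0. The list medians ran from -0.16 for the mitochondrially encoded mRNAs to 0.10 for the immediate early genes. Without vehicle replicate 1 these medians were -0.02 and 0.11.

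**Figure D4:**
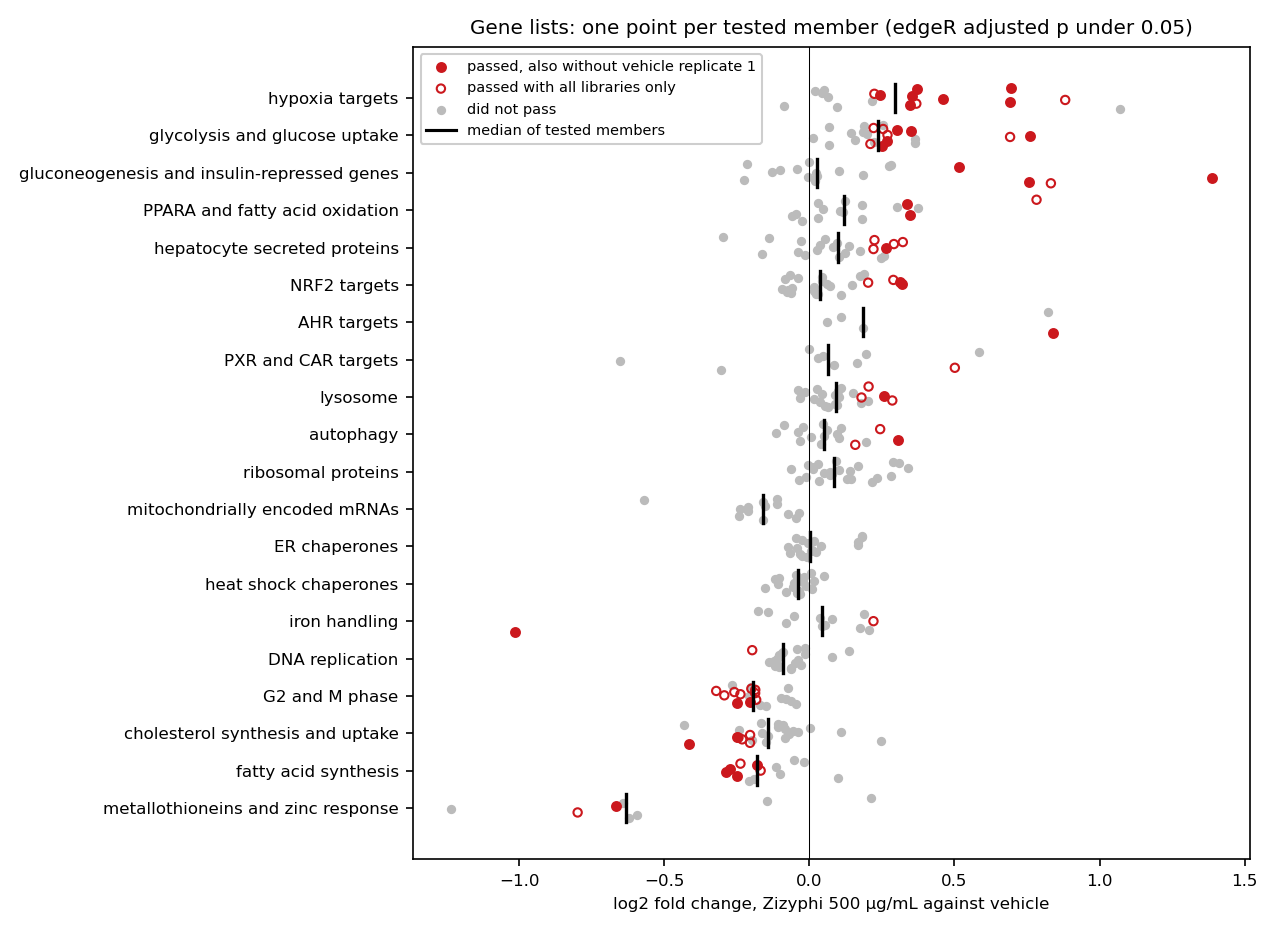
Each point is a tested gene of a list, placed by its log2 fold change at 500 µg/mL against the vehicle. Filled red points passed also without vehicle replicate 1, open red points passed with all libraries but not without it, grey points did not pass, and black lines are list medians, from -0.63 for the metallothionein list to 0.30 for the hypoxia list.

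The other genes among the 12 largest rises and the 12 largest falls were as follows. SLC22A18, a membrane transporter of the organic cation family, was at 14.5, 16.4 and 19.9 CPM in vehicle libraries and 29.3, 26.7 and 32.8 CPM in high-dose libraries (0.81 ± 0.15, edgeR adjusted p = 6.36e-04). UNC93A, a membrane protein, was at 3.68, 4.94 and 4.55 and 6.61, 7.63 and 7.71 CPM (0.75 ± 0.10, edgeR adjusted p = 1.52e-06), again without overlap. Among the falls, SCNN1A, the alpha subunit of the epithelial sodium channel, went from 23.1, 25.6 and 27.4 CPM to 17.3, 16.8 and 18.1 CPM (-0.54 ± 0.07, edgeR adjusted p = 1.97e-06). CPLX2, a regulator of vesicle fusion, fell from 324 ± 10.2 to 229.8 ± 17.0 CPM and JDP2, a repressor of the AP-1 family, from 6.58 ± 0.154 to 4.63 ± 0.205 CPM, at -0.50 ± 0.07 and -0.51 ± 0.11. These 5 calls held with each library left out. Those of GLTPD2 (0.95 ± 0.27), HGFAC (0.70 ± 0.16), PRR7 (0.70 ± 0.18), ISM1 (-0.53 ± 0.12) and BTG2 (-0.44 ± 0.12) ended without vehicle replicate 1. So did those of RAB43 (0.75 ± 0.20), KIF7 (-0.42 ± 0.12), RSC1A1 (-0.45 ± 0.13) and AL121594.1 (-1.01 ± 0.31), which overlap other genes and are uncertain because the strand setting of the counting is not given in the sources used here.

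The 3 doses were next compared within the extract. The high and low doses share a code set, and 58 genes differed between them, 0.351% of tested genes. At the high dose 35 of these were higher (0.212%) and 23 lower (0.139%). Base composition differed here too, in a comparison without vehicle libraries. The median GC content was 58.25% for the higher and 46.65% for the lower genes, against 50.16% for all tested genes. The replicate numbers of these libraries correlated, but the values given here come from the fit without a replicate block. With that number as a block, 60 genes were called in the full fit and 41 in the code set alone. Against the vehicle, the medium dose gave 116 calls (0.702%) and the low dose 346 (2.09%), in comparisons that share the vehicle libraries with the high dose. Without vehicle replicate 1 these counts were 1 and 29, and without low-dose replicate 1 the low dose gave 26. The medium-dose count was 19 without medium-dose replicate 2 and 8 without replicate 3.

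Beside CYP1A1 and HAMP, the genes called in the same direction against both the low dose and the vehicle included CLDN6, DEPP1 and CYP3A5 among the rises and MT1X, SCNN1A, TNFRSF11A and HMGCS1 among the falls. Against the vehicle, the TNFRSF11A call ended under 10 of 14 alternatives, DESeq2 and all 6 fits with a library left out among them, and the CLDN6 call under 7 of 14. The vehicle calls of ARHGAP19, SERINC2, ASNS, CYP3A5 and ACSS2 ended under 7, 4, 4, 3 and 3 of 14. Against the low dose, the CYP3A5 call ended under 13 of the 14 alternatives that gave it a value. The MT1X call ended under 8 of 15, all 6 fits with a library left out among them. Those of ARHGAP19, ASNS, SERINC2, TNFRSF11A, DEPP1 and L1CAM ended under 9, 9, 7, 6, 4 and 3 of 15. Those of CLDN6, SCNN1A, HMGCS1, CAVIN2 and ACSS2 each ended under 1 of 15, with only the 6 libraries compared. CLDN6, a tight junction protein, was at 10.2, 9.88 and 9.94 CPM at the low and 13.3, 15.5 and 13.8 CPM at the high dose (0.51 ± 0.07, edgeR adjusted p = 7.45e-05), with the vehicle between at 12.7, 11.0 and 11.6 CPM. CAVIN2, a coat protein of caveolae, climbed through the doses. The vehicle libraries were at 18.1, 18.6 and 19.0 CPM, and the extract gave 19.6, 21.3 and 21.2 CPM at the low, 22.4, 24.4 and 25.2 CPM at the medium and 26.1, 27.1 and 26.8 CPM at the high dose, with no overlap between neighbouring groups. SCNN1A stayed at 22.6, 25.1 and 24.6 CPM at the low dose and was lower by 0.47 ± 0.07 on the log2 scale at the high dose (edgeR adjusted p = 7.79e-05). L1CAM, a cell adhesion molecule, was higher by 0.39 ± 0.07 and SERINC2 by 0.40 ± 0.09. Of the sterol list 4 of 25 were lower than at the low dose, and of the fatty acid list 4 of 13, against 0.139% of all genes, with ACSS2 at -0.28 ± 0.04 (edgeR adjusted p = 9.35e-06). The amino acid synthesis enzyme ASNS was lower by 0.28 ± 0.07, the receptor gene TNFRSF11A by 0.33 ± 0.07 and the GTPase regulator ARHGAP19 by 0.30 ± 0.07. Under the replicate block over all libraries MT1X and CYP3A5 did not pass (their log2 differences were -0.54 ± 0.13 and 0.43 ± 0.10), and with the block fitted in the code set alone, CYP3A5, SERINC2, TNFRSF11A, ARHGAP19 and ASNS did not. Without high-dose replicate 3 or low-dose replicate 1 the count of calls was 23, and DEPP1, L1CAM, SERINC2, TNFRSF11A, ARHGAP19, ASNS, MT1X and CYP3A5 were not among them.

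**Figure D5:**
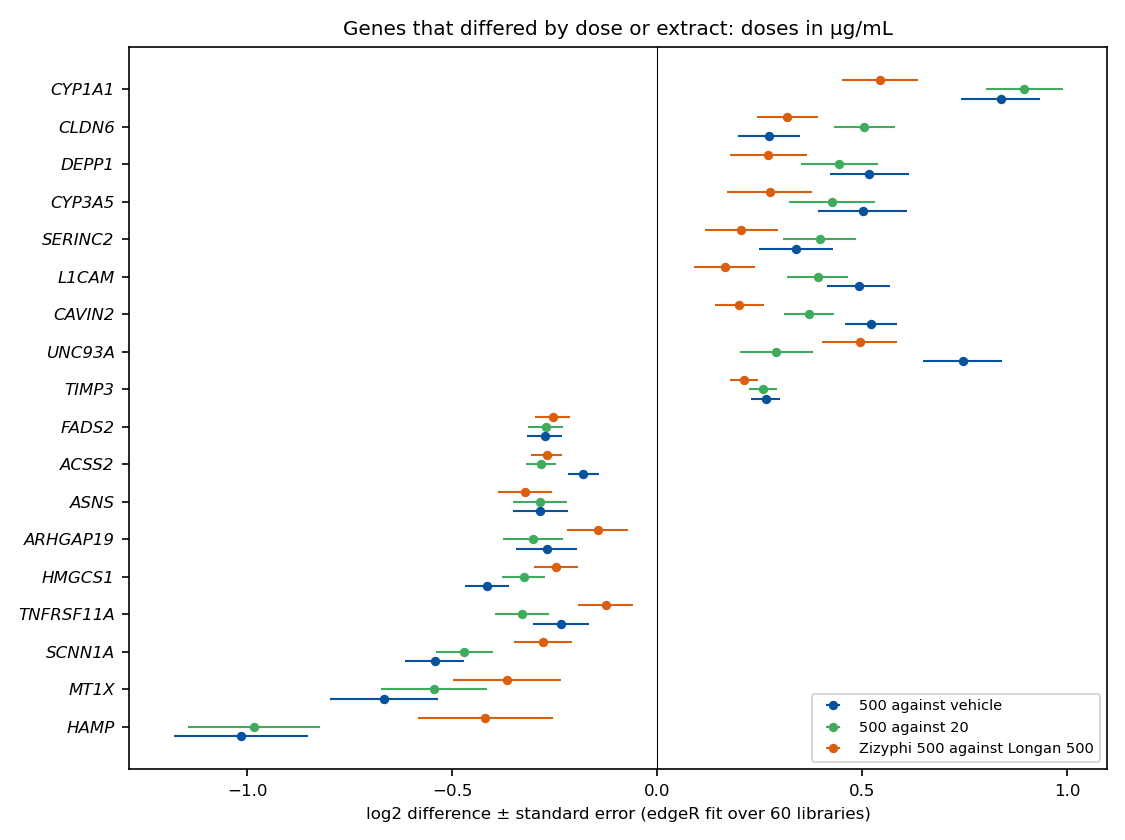
Points give the log2 difference and bars the standard error from the edgeR fit for Zizyphi at 500 µg/mL against the vehicle (blue), against 20 µg/mL (green) and against Longan at 500 µg/mL (orange). CYP1A1 was higher and ACSS2 and FADS2 lower in all 3 comparisons, while HAMP was at -1.02 ± 0.16, -0.98 ± 0.16 and -0.42 ± 0.17, in that order.

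The last comparison set Zizyphi against Longan at the same dose and in the same code set. Only 7 genes differed, 4 higher (0.0242%) and 3 lower (0.0182%), 0.0424% of tested genes. CYP1A1 was at 9.06, 8.29 and 9.10 CPM with Longan, between the vehicle and Zizyphi, and higher with Zizyphi by 0.54 ± 0.09 (edgeR adjusted p = 0.00152). UNC93A was at 5.00, 5.05 and 5.53 CPM with Longan (difference 0.49 ± 0.09), and TIMP3, an inhibitor of metalloproteinases, at 186, 181 and 183 CPM against 216, 206 and 215 CPM (0.21 ± 0.03). In neither gene did the libraries overlap. The lower genes were ACSS2, at 137, 132 and 142 CPM with Longan and 115, 114 and 113 CPM with Zizyphi (-0.27 ± 0.04, edgeR adjusted p = 7.16e-05), FADS2 (-0.25 ± 0.04, edgeR adjusted p = 0.00152) and ASNS (-0.32 ± 0.07, edgeR adjusted p = 0.0394). The other call was a pseudogene, AL445665.1. HAMP, at 13.8, 16.3 and 15.0 CPM with Longan, was lower with Zizyphi in every library, but the difference of -0.42 ± 0.17 did not pass (edgeR adjusted p = 1.00), and neither did those of IGFBP1 (0.53 ± 0.17) and HMGCS1 (-0.25 ± 0.05). None of the 7 calls held with the replicate number as a block in the code set, where edgeR called 0 genes and 693 had an unadjusted p under 0.05. DESeq2 without a block called 16.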

How the data were processed

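RNA-seq of 60 HepG2 libraries was used. The authors deposited RSEM expected counts per gene; the submitters' processing notes name STAR 2.7.3a and RSEM 1.3.3, with Trim Galore 0.6.5 and FastQC 0.11.9. Annotation release and strand setting: not given in the sources used here. Symbols and positions came from GENCODE 29 on GRCh38, which matched 57055 of 60675 IDs.

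Estimated counts were rounded, and 16517 genes passed filterByExpr; the genes left out held 0.0534% of the counts. edgeR 4.0.16 (R 4.3.3, limma 3.58.1) was fitted to all 60 libraries with 1 term per group and TMM scaling; its 2-sided quasi-likelihood test was adjusted by Benjamini-Hochberg over all tested genes at 0.05, after being tested on simulated data. The members and gene lists were chosen with earlier results of these data known. Named genes were the 12 largest rises and 12 largest falls against the vehicle among called protein-coding genes that reach 5 CPM without overlap, up to 4 members per list by p, the 8 largest each way against the low dose and the 5 largest against Longan; other genes are given as reference members of a list. The replicate numbers of the high and low doses correlated (r of 0.36, 0.57 and 0.21 for the deviations from group means over 9720 genes). The reported fit had no replicate block in any comparison, and the block was run only as an alternative. Alternatives were another scaling (RLE), 2 filters, library covariates, the replicate block, the 6 libraries alone, each library left out and DESeq2 1.42.0. Some genes are not reported here. In no group compared here did replicates agree within counting noise, and none was merged.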

Additional observations from a re-analysis of the deposited data

How the results depend on the processing

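Against the vehicle the 730 calls became 728 with RLE scaling (55.8% of them higher, against 57.8%), 863 with DESeq2, 864 without a filter (425 shared), 1054 with GC slope and structured RNA share as covariates (609 shared) and 233 when only the 6 libraries were fitted. Leaving out 1 library gave 195 to 681: vehicle replicate 1 gave 195, and high-dose replicates 1, 2 and 3 gave 420, 469 and 383. The 58 calls against the low dose became 207 without a filter and 3 with 6 libraries, and 23 to 62 with a library left out (38 without high-dose replicate 1, 35 without low-dose replicate 3). The 116 calls of the medium dose became 438 without a filter, 391 with covariates, 5 with 6 libraries, 272 with DESeq2 and 1 to 131 with a library left out (71 without vehicle replicate 2). The 346 of the low dose became 697 without a filter, 16 with 6 libraries, 542 with DESeq2 and 26 to 288 (169 without vehicle replicate 2, 206 without low-dose replicate 3). The 7 against Longan became 88 without a filter, 16 with DESeq2, 0 with 6 libraries (478 genes at an unadjusted p under 0.05) and 3 to 6 (3 without Longan replicate 2, 4 without high-dose replicate 2 or 3). The cause of these changes was not tested. No named call reversed under any of these settings, and of 88 named genes called against the vehicle, 84 were called by DESeq2 and 44 without vehicle replicate 1.

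A replicate block in the fit of all libraries gave 811 calls against the vehicle (727 shared), and with the block and the 6 libraries 213. Between the high and the low dose the block gave 60 calls over all libraries, 41 in the code set and 87 with 6 libraries. The block with 6 libraries gave 37 calls for the low dose against the vehicle and 0 against Longan (387 at an unadjusted p under 0.05). At 21.6 to 30.2 M counts per library, genes far below 1 CPM such as CYP3A4 had wide errors (0.66 on the log2 scale).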

Other observations

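Some of the 145 genes called with each library left out belong to no list above, and were chosen after their values were seen. FST, encoding follistatin, a secreted binder of activins, was at 39.7, 38.4 and 41.2 CPM in vehicle libraries and 57.2, 57.0 and 52.9 CPM in high-dose libraries, without overlap (log2 fold change 0.49 ± 0.06, edgeR adjusted p = 3.38e-07). HAVCR1, a membrane receptor known as an injury marker of the kidney tubule, was low at 0.719, 0.424 and 0.911 CPM in vehicle libraries and 1.99, 1.53 and 2.06 CPM in high-dose libraries (1.43 ± 0.27). CHST15, a sulfotransferase of chondroitin, rose by 0.65 ± 0.11, BDH1, a ketone body dehydrogenase, by 0.47 ± 0.08, and PLOD2, a collagen lysyl hydroxylase, by 0.44 ± 0.09. The zinc importer SLC39A4 rose by 0.42 ± 0.08 and TGFBR3, a coreceptor of the TGF-beta family, by 0.35 ± 0.05. Among the falls, SALL1, a developmental transcription factor, was at -0.33 ± 0.06, SEMA6A, a semaphorin, at -0.33 ± 0.07 and DNMT3B, a DNA methyltransferase, at -0.29 ± 0.06.

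Several other lists had few calls, none with each library left out unless named, against 1.86% of all genes called lower and 2.55% called higher. In ribosome biogenesis 2 of 20 fell, of which WDR43 (-0.29 ± 0.05) passed with each library left out and NCL, encoding nucleolin, did not (-0.25 ± 0.06). In DNA replication 1 of 21 fell (CHAF1A, -0.20 ± 0.06). Among 20 p53 targets TP53I3 rose (0.27 ± 0.08) and MDM2 (-0.27 ± 0.07) and BTG2 fell. RELB (0.47 ± 0.11) and ICAM1 (0.17 ± 0.04) rose among 12 genes of the NF-kB list, and STAT2 (0.20 ± 0.06) among 16 interferon response genes. UQCRC1 (0.18 ± 0.05) was called in the list of nuclear genes of the respiratory chain.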
